A study of Drosophila melanogaster with 25 samples.

Results

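The odorant-binding protein genes described here, from the brain transcriptome of Drosophila melanogaster, are Obp99a, Obp99b, Obp99c, Obp56d, Obp44a, Obp19d, Obp83a, Obp83b, Obp28a and lush. The 10 genes were chosen by FlyBase symbol, and all of them were found among the 16060 genes measured, next to 38 other genes with an Obp symbol. Brain RNA was sequenced in 25 libraries that form 4 groups by sex and treatment. There were 5 female and 7 male controls, and 7 female and 6 male libraries after photodynamic exposure (PDE). In PDE a photosensitiser is combined with light, which generates reactive oxygen species, and the series concerns the oxidative stress response under prolonged treatment. The sources used here do not give the compound, the light, the duration, the strain or the age of the flies. The unit is RPKM, in which reads are divided by gene length and by the library's total.

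Odorant-binding proteins are small secreted proteins that fold around a hydrophobic pocket. In the antenna they fill the fluid that bathes olfactory neurons, where they bind odorants and pheromones near the receptors. The family is not confined to smell: some members are made in the fat body, the insect counterpart of liver and adipose tissue, and others in glia of the central nervous system. The genes were therefore read in 3 classes, set with earlier results of these data known. Obp99a, Obp99b and Obp99c were the fat body class, Obp44a was the glial class, and Obp56d, Obp19d, Obp83a, Obp83b, Obp28a and lush were the antennal class.

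Library totals recovered from the values ran from 8.88 to 58.73 M reads, and the lowest was in a female control. The roX genes, which are transcribed in males for dosage compensation, summed to 10.3 to 39.7 RPKM in females and 1990 to 2320 RPKM in males, so every library matched its labelled sex. The brain label was checked with nSyb, a synaptic vesicle gene (271 to 317 RPKM), and the glial genes repo (23.2 to 35.1 RPKM) and Gs2 (350 to 581 RPKM). The table listed elav, a gene of all neurons, at no more than 0.0466 RPKM. It listed the retinal markers Arr2 and ninaA and the glial marker moody at 0 in every library. A value of 0 in the table therefore does not show that a gene is silent. Or47b and Snmp1, from the list of olfactory receptors and partners, were also at 0 in every library. The sum of 15 retinal markers ran from 81.7 to 9620 RPKM, and 10 libraries, called retina-rich, were above 3 times the median: 1 female control, 2 females after PDE, 5 male controls and 2 males after PDE. Nothing in the labels ties libraries to separate flies, pools or days, so p-values measure the spread between these libraries, which may be technical.

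The family spanned a wide range of levels in the brain, led by the glial member. Levels are compared between genes as RPKM over exon length, because the deposited RPKM used the genomic span with introns for most genes. On that scale Obp44a averaged 366 over the 25 libraries (66.7 to 578) and Obp99c averaged 30.6 (14.2 to 77.9). Obp44a was above Obp99c, and Obp99c above Obp19d, in 25 of 25 libraries. The next genes could not be ordered by their spread. Obp19d averaged 6.62 (2.22 to 24.1), Obp99a 6.18 (0.352 to 51.0), Obp99b 4.45 (0 to 24.7), Obp56d 2.01 (0.461 to 7.81) and Obp83a 1.49 (0.615 to 2.25), all as RPKM over exons. In this stretch each gene exceeded the one named after it in 11 to 17 of 25 libraries. Obp83a was above Obp28a in 25 of 25 libraries. Obp28a (0.309), Obp83b (0.301) and lush (0.101) closed the order by mean RPKM over exons. In deposited RPKM, the mean of Obp44a was above that of 99.4% of the tested genes.

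A gene was tested where it reached 1 RPKM in at least 5 libraries, which held for 7985 genes and for 6 of the 10 members. The 6 were Obp99a, Obp99b, Obp99c, Obp56d, Obp44a and Obp19d. Obp83a, Obp83b, Obp28a and lush reached 1 RPKM in 0 libraries and were not tested with the other genes. The 6 tested members varied more between libraries of 1 group than most genes did. The within-group SD of log2(RPKM + 1) was 0.997 for Obp99a, 0.88 for Obp99b, 0.73 for Obp19d, 0.659 for Obp56d, 0.619 for Obp99c and 0.544 for Obp44a, against a median of 0.136 over the tested genes. They stood between percentiles 96.0 and 99.0 of that distribution. For Obp44a, female control 1 lay at 62.6 RPKM against 210 to 543 RPKM in the other libraries, and the SD without it was not computed.

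**Figure D1:**
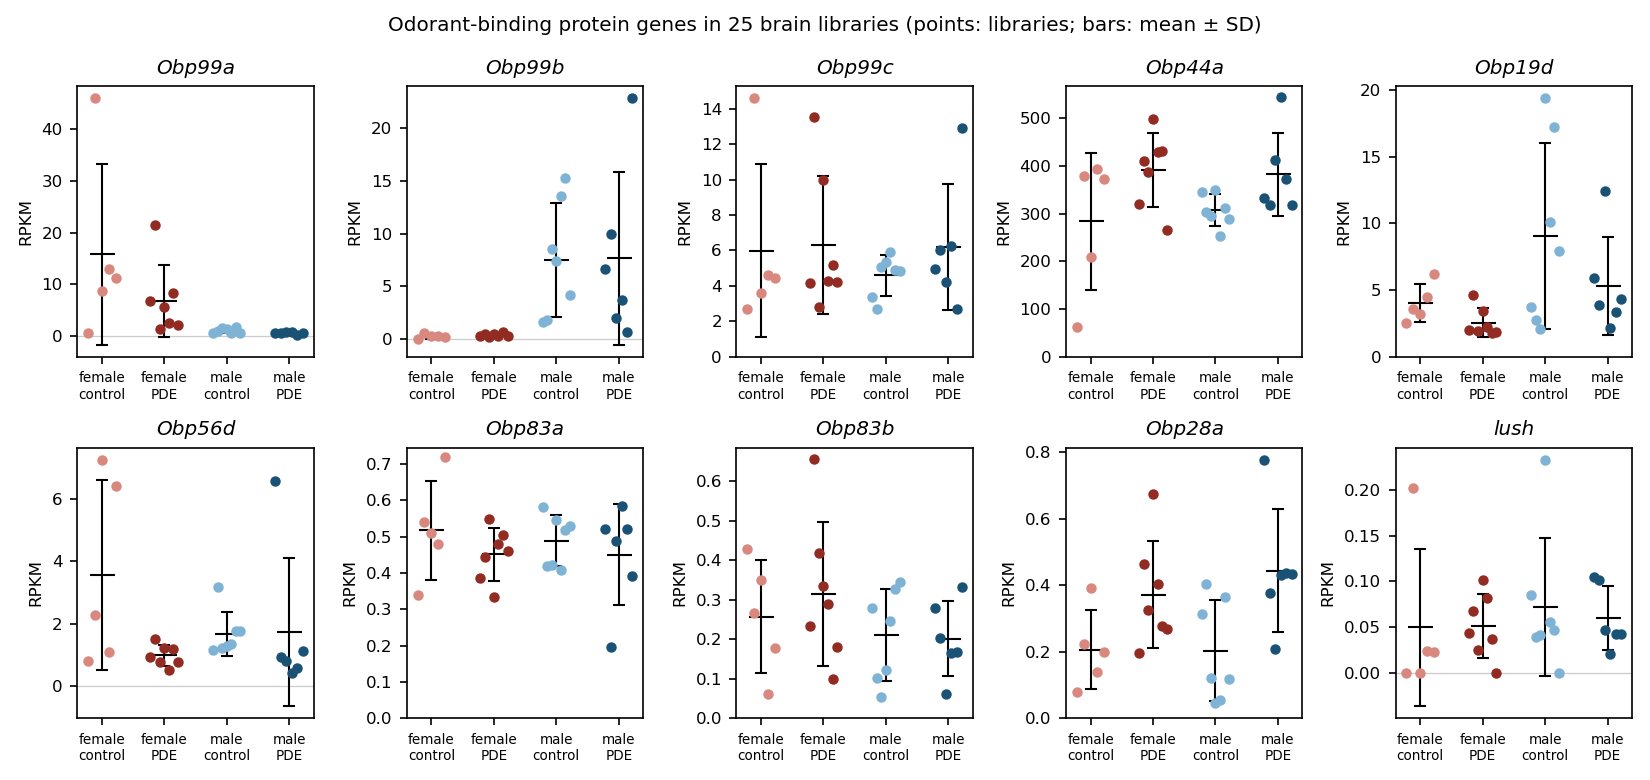
RPKM (linear axes, a separate scale per gene) of the 10 odorant-binding protein genes in female controls, females after PDE, male controls and males after PDE. Each point is 1 library, the horizontal line is the group mean and the bars are the SD. Obp99b lay below 0.7 RPKM in every female library and above it in every male library, while Obp99a was high in most female libraries and low in males.

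The fat body genes Obp99a and Obp99b differed between the sexes in opposite directions. Obp99b, which is known as a gene with male-biased expression in the fat body of the head, was 26.1 times higher by mean RPKM in male than in female controls. Obp99a was 14.0 times higher by mean RPKM in female controls, and 7.36 times higher without female control 2. Obp99c, which lies between them on the chromosome, did not pass the test between the sexes.

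Obp99b (FBgn0039685, dm6 3R:29716254-29716896, minus strand) measured 0, 0.598, 0.35, 0.312 and 0.179 RPKM in the 5 female controls, which rests on 19 reads in all. In females after PDE its lowest, median and highest values were 0.225, 0.358 and 0.692 RPKM. In male controls they were 1.68, 7.38 and 15.3 RPKM, and in males after PDE 0.724, 5.2 and 22.8 RPKM. Male and female libraries did not overlap under either treatment, and the males spread widely within each treatment. Group means were 0.288 ± 0.221 RPKM (SD, n = 5) in female controls, 0.408 ± 0.154 (SD, n = 7) in females after PDE, 7.52 ± 5.41 (SD, n = 7) in male controls and 7.66 ± 8.15 (SD, n = 6) in males after PDE. In limma's moderated test with Benjamini-Hochberg adjustment over the tested genes, Obp99b was higher in males by 2.44 on the log2(RPKM + 1) scale in controls (SE 0.487, adjusted p = 0.00277). The male excess after PDE was 2.11 (SE 0.463, limma adjusted p = 0.00589). Averaged over control and PDE it was 2.28 (SE 0.336, limma adjusted p = 3.48e-05). The pseudocount of 1 shrinks these differences, since the female values lie below it. The male to female ratio of mean RPKM after PDE was 18.8, the ratio of medians was 14.5, and without male after PDE 6 the ratio of means was 11.3.

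Obp99a (FBgn0039678, dm6 3R:29671657-29672334, plus strand) measured 0.539, 45.9, 8.63, 13 and 11.2 RPKM in the 5 female controls. In females after PDE it ran from 1.37 through a median of 5.71 to 21.5 RPKM. Male controls held 0.678, 0.976 and 1.78 RPKM as lowest, median and highest, and males after PDE held 0.317, 0.649 and 0.878. After PDE the sexes did not overlap. In controls they overlapped through female control 1, which lay below all 7 male controls. Means were 15.8 ± 17.4 RPKM (SD, n = 5) in female controls, 6.88 ± 6.94 (SD, n = 7) in females after PDE, 1.13 ± 0.484 (SD, n = 7) in male controls and 0.634 ± 0.197 (SD, n = 6) in males after PDE. The male minus female difference of Obp99a was -2.31 on the log2(RPKM + 1) scale in controls (SE 0.551, limma adjusted p = 0.0135). It was -1.88 after PDE (SE 0.523, limma adjusted p = 0.0356), where the mean RPKM was 10.9 times higher in females and 7.01 times higher without female after PDE 2. Averaged over control and PDE it was -2.10 (SE 0.38, limma adjusted p = 0.000418).

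The calls of Obp99a within a treatment depended on single libraries and on the scale. Without female control 2, the highest library, the difference in controls was -1.76 (limma adjusted p = 0.0558). The call after PDE was lost when any of 10 libraries was left out, namely females after PDE 1, 2, 4 and 6 and each of the 6 males after PDE, with limma adjusted p up to 0.0856. In a fit of recovered read counts with voom, Obp99a differed by -2.98 in controls (limma adjusted p = 0.0717) and by -2.80 after PDE (adjusted p = 0.256). In the same fit Obp99b differed by 4.67 in controls (adjusted p = 0.0761) and by 3.43 after PDE (adjusted p = 0.0636). Averaged over the treatments, that fit called both, with -2.89 for Obp99a (adjusted p = 0.0148) and 4.05 for Obp99b (adjusted p = 0.00357). In the 15 libraries that were not rich in retinal markers, the averaged difference of Obp99a was -1.90 (limma adjusted p = 0.109), and that of Obp99b in controls was 2.05 (limma adjusted p = 0.142). The averaged call of Obp99b held in every alternative that tested it, with limma adjusted p up to 0.00357.

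Obp99c (FBgn0039682, dm6 3R:29685736-29689311, minus strand) overlaps the oppositely oriented gene Gycalpha99B by 23 bases. The sources used here do not say whether the counting used strand, so reads in the overlap cannot be assigned with certainty. It measured 2.68, 14.6, 3.59, 4.59 and 4.47 RPKM in the 5 female controls. Lowest, median and highest values were 2.81, 4.3 and 13.5 RPKM in females after PDE, 2.71, 4.9 and 5.93 in male controls and 2.67, 5.49 and 12.9 in males after PDE. All 4 groups overlapped, and in 3 of them a single library stood highest at over 12 RPKM. The male minus female difference averaged over the treatments was -0.07 on the log2(RPKM + 1) scale (95% interval -0.56 to 0.42, limma adjusted p = 0.902).

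Of the 6 tested members, 2 were called between the sexes among controls and 2 after PDE, in each case Obp99b as higher and Obp99a as lower in males. Over all tested genes 4.75% were called in controls (1.58% higher and 3.17% lower in males) and 4.92% after PDE (1.65% higher and 3.27% lower). Averaged over the treatments the same 2 of 6 members were called, against 12.1% of all tested genes (4.26% higher and 7.88% lower). Both passed the minimum through the sex in which they are high. Obp99b reached 1 RPKM in 12 of 13 male and 0 of 12 female libraries, and Obp99a in 11 of 12 female and 3 of 13 male libraries, so the count of 2 in 6 cannot be read against these shares. In the fit with no minimum, Obp99b was called in controls (limma adjusted p = 0.00513) and after PDE (adjusted p = 0.0108), and Obp99a in controls (adjusted p = 0.0225) but not after PDE (adjusted p = 0.0574). Groups that did not overlap between the sexes were found for 2.97% of tested genes among controls (1.08% higher and 1.89% lower in males), as for Obp99b alone among the members. After PDE, where Obp99b and Obp99a did not overlap, they were found for 3.01% (0.914% higher and 2.09% lower).

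The 3 genes lie in 1 stretch of 45240 bases on chromosome arm 3R that also holds Bub3, CG7582, Gycalpha99B, dmrt99B and 5 genes below the minimum for testing. Obp99a and Obp99c are 13401 bases apart, and Obp99c and Obp99b 26942 bases. The 4 other genes tested in the stretch were not called between the sexes. Their averaged male minus female differences on the log2(RPKM + 1) scale were 0.01 for Bub3, -0.02 for CG7582, 0.03 for Gycalpha99B and -0.07 for dmrt99B.

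**Figure D2:**
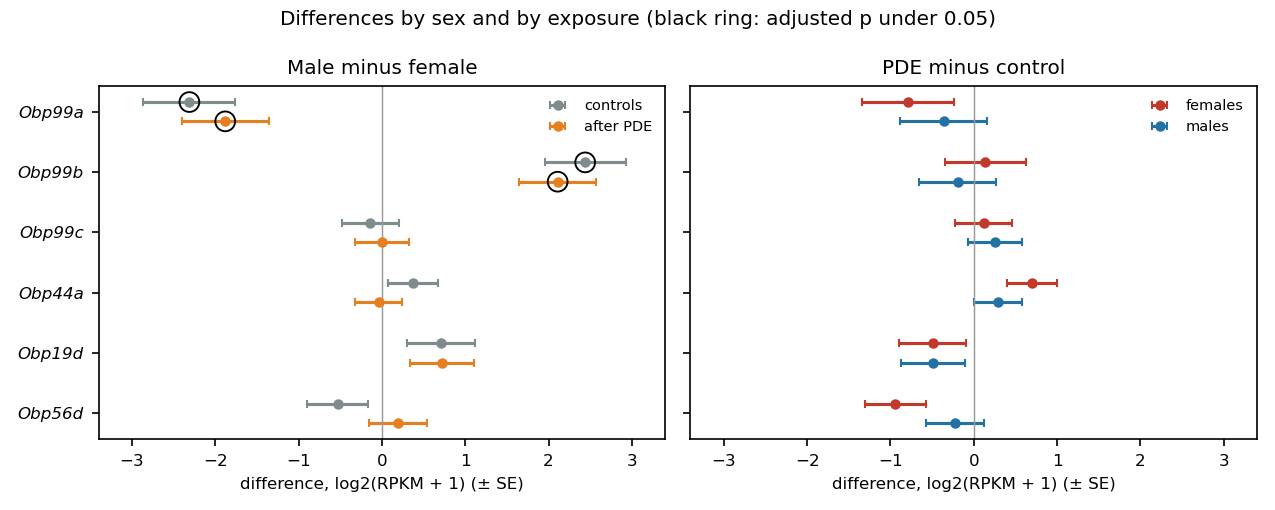
Differences on the log2(RPKM + 1) scale for the 6 tested members, as points with the SE of limma's fit. The left panel gives male minus female in controls and after PDE, and the right panel PDE minus control in females and males. Black rings mark an adjusted p under 0.05; they surround Obp99a and Obp99b between the sexes and no point of the PDE panel.

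The sex differences were read beside genes of the fat body, the tissue in which the class is best known. A list of 7 sex-biased fat body genes held the yolk protein genes Yp1, Yp2 and Yp3, the female-enriched satiety peptide gene fit, takeout (to), sxe1 and sxe2, and 5 of them were tested. Yp1, Yp2, Yp3 and fit were lower in males, with male minus female differences of -4.61, -4.46, -4.04 and -3.20 on the log2(RPKM + 1) scale averaged over the treatments, and all 4 passed limma's adjusted threshold. The male-enriched gene to differed by 1.04 (SE 0.53, limma adjusted p = 0.237). The summed level of the 7 genes was 79.9 to 6020 RPKM in female controls, 163 to 2520 in females after PDE, 52.6 to 169 in male controls and 24.7 to 194 in males after PDE. Of the 9 other fat body markers 6 were tested, and 1 of them, the larval storage protein gene Lsp2, was lower in males (-1.05, limma adjusted p = 0.0492). Over all tested genes 7.88% were lower in males in this comparison. The 9 markers summed to 271 to 500 RPKM in female controls, 370 to 604 in females after PDE, 317 to 457 in male controls and 354 to 505 in males after PDE. Tsf1 made up most of this sum, with a mean of 371 RPKM over all libraries against 33.9 for apolpp, the next highest. The log2 sum differed between males and females by only 0.11 in controls and -0.10 after PDE. As a covariate it could therefore move a sex difference little. With it, the averaged male minus female difference was -2.11 for Obp99a (limma adjusted p = 2.07e-05) and 2.28 for Obp99b (limma adjusted p = 3.95e-05), close to the values without it. The part of the sex-biased list in these differences was not tested. In bulk RNA, fewer cells of a type and less RNA per cell cannot be told apart.

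Within groups, the Obp99 genes varied together with the sex-biased fat body list. Values were centred on their group means, so that the sex difference itself does not enter. Over 25 libraries the correlation with the summed list was r = 0.88 for Obp99a (Spearman rho = 0.74), and permutation within groups gave adjusted p = 0.000765 for r and 0.00229 for rho over 51 relations. Without the 2 libraries farthest from the median of the uncentred list sum, r was 0.81. Group means were not recomputed for such values here and below, so the 2 libraries still enter through those means. In each group r was 1.0, 0.92, 0.53 and 0.29, in the order female controls, females after PDE, male controls and males after PDE. These values were higher in the female groups, where the gene is also higher.

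Obp99b and Obp99c followed the same list in the males too, where the sum is made up differently. The gene to averaged 67.2 RPKM in male controls and 67.1 in males after PDE, and Yp1 22.7 and 7.72. In female controls to averaged 45.0 RPKM and Yp1 773, and in females after PDE 41.1 and 330. Which genes of the list carry these relations was not tested. For Obp99b r was 0.49 and rho 0.68 (permutation, adjusted p = 0.000765 and 0.00229), and r without the 2 farthest libraries was 0.56. The values by group were 0.95, 0.54, 0.84 and 0.86, in the order female controls, females after PDE, male controls and males after PDE. The female values rest on few reads of Obp99b, 0 to 9 a library in controls and 4 to 14 after PDE. For Obp99c r was 0.79 and rho 0.68 (permutation, adjusted p = 0.000765 and 0.0105), r without the 2 farthest libraries was 0.65, and the values by group were 0.87, 0.72, 0.85 and 0.81. Obp99b and Obp99c also moved together, with r = 0.59 and rho = 0.65 (permutation, adjusted p = 0.000765 and 0.00255), and r = 0.51 without the 2 farthest libraries. For Obp99a and Obp99c r was 0.69 and rho 0.56 (permutation, adjusted p = 0.0114 and 0.0441), and r was 0.45 without the 2 farthest. The relation of Obp99a and Obp99b was weaker, with r = 0.19 and rho = 0.41 (permutation, adjusted p = 0.0437 and 0.0565). By group its r was 0.93, 0.68, 0.52 and 0.10, in the same order of groups. Female control 2 held the highest sum of the list (6020 RPKM) and the highest Obp99a (45.9 RPKM) and Obp99c (14.6 RPKM) of all libraries. Male after PDE 6 held the highest sum among males (194 RPKM) and the highest Obp99b (22.8 RPKM) of all libraries. With the sum of the other fat body markers, mostly Tsf1, r was 0.64 for Obp99a, -0.12 for Obp99b and 0.57 for Obp99c. The adjusted p by permutation was 0.0446, 0.714 and 0.055 in that order, and no rho passed (0.203, 0.681 and 0.123). In the same order r was 0.87, 0.71 and 0.91 in female controls and 0.65, 0.33 and 0.81 in females after PDE. In male controls it was -0.10, -0.70 and -0.73, and in males after PDE -0.15, -0.13 and 0.24.

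**Figure D3:**
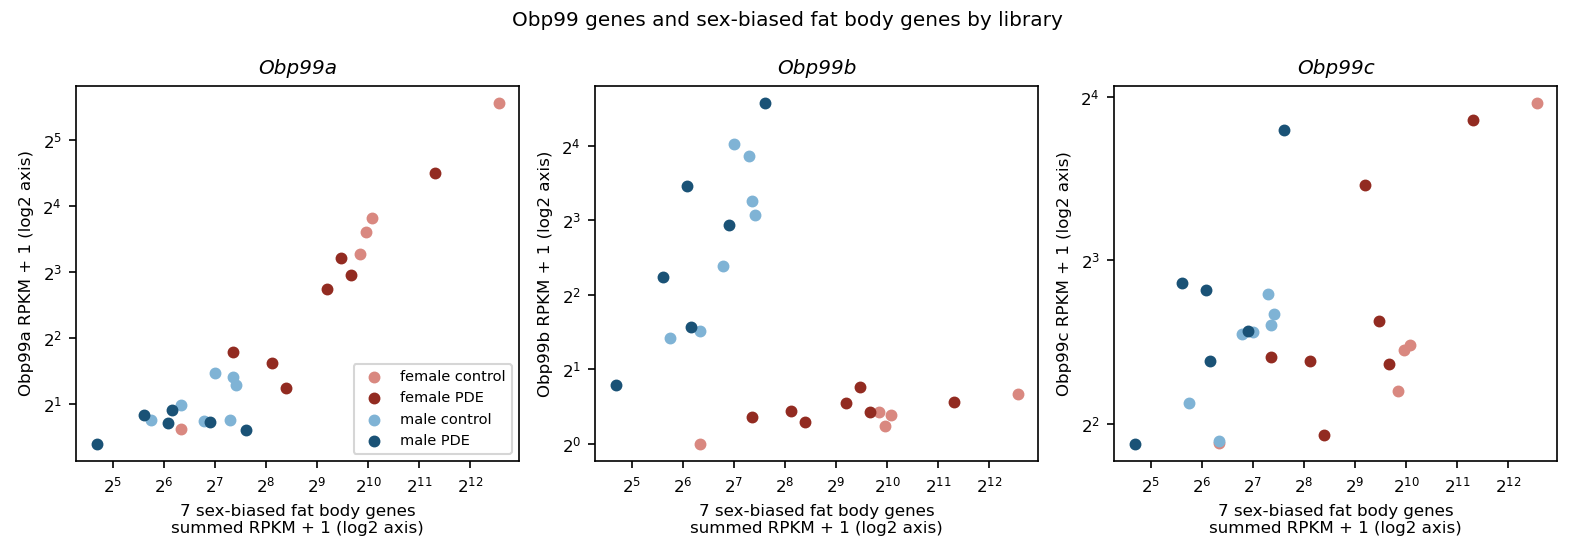
Obp99a, Obp99b and Obp99c (RPKM + 1, log2 axis) against the summed RPKM + 1 of 7 sex-biased fat body genes (log2 axis), 1 point per library, coloured by group. Obp99a climbs with the sum along the female libraries up to 45.9 RPKM, Obp99b climbs with it among males up to 22.8 RPKM while staying under 0.7 RPKM in females, and Obp99c climbs in both sexes.

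Over all tested genes, those most like Obp99a across the 25 centred libraries were fit (r = 0.94) and Yp3 (r = 0.91), both on the sex-biased list. For Obp99b they were CG5171 (r = 0.73) and CG11854 (r = 0.71), and for Obp99c CG2233 and CG3246 (both r = 0.95). CG11854, CG3246 and fit overlap other annotated genes, so their reads carry the same uncertainty over strand.

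The exposure itself gave no call in the fat body class. The PDE minus control difference on the log2(RPKM + 1) scale was -0.79 for Obp99a in females (95% interval -1.93 to 0.35) and -0.36 in males (-1.44 to 0.72). For Obp99b it was 0.14 in females (-0.87 to 1.14) and -0.19 in males (-1.15 to 0.76). For Obp99c it was 0.12 in females (-0.58 to 0.83) and 0.26 in males (-0.41 to 0.93). The intervals are wide enough to hold changes of more than 1 log2 unit for Obp99a and Obp99b. Averaged over the sexes, the difference of Obp99a was -0.57 (SE 0.38). It was -0.92 without female control 1 (limma adjusted p = 0.375), -0.30 without female control 2 (adjusted p = 0.969) and -1.33 with the fat body marker sum as a covariate (adjusted p = 0.168). Averaged over the sexes the limma adjusted p was 0.96 for Obp99a, 0.999 for Obp99b and 0.999 for Obp99c.

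Obp44a (FBgn0033268, chromosome arm 2R), which is made by glia of the fly brain, was the most abundant Obp gene in every group. It overlaps the oppositely oriented gene Pabp2 by 205 bases. The 5 female controls measured 62.6, 378, 210, 394 and 372 RPKM. Lowest, median and highest values were 266, 410 and 498 RPKM in females after PDE, 254, 304 and 350 in male controls and 317, 352 and 543 in males after PDE. All 6 males after PDE lay above the median of the male controls, and 5 of 7 females after PDE lay above that of the female controls, yet the groups overlapped in both sexes. Female control 1 stood far below every other library. Means were 283 ± 144 RPKM (SD, n = 5) in female controls, 391 ± 77.1 (SD, n = 7) in females after PDE, 307 ± 33.5 (SD, n = 7) in male controls and 382 ± 87.0 (SD, n = 6) in males after PDE.

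The PDE minus control difference of Obp44a was 0.50 on the log2(RPKM + 1) scale averaged over the sexes (SE 0.208, 95% interval 0.07 to 0.93). It did not pass limma's adjusted threshold (unadjusted p = 0.0248, adjusted p = 0.635). In females it was 0.70 (SE 0.301, limma adjusted p = 0.979) and in males 0.29 (SE 0.286, limma adjusted p = 1). Without female control 1 the averaged difference was 0.26 and that of females 0.23 (limma adjusted p = 0.727 and 0.988). With the fat body marker sum, which is mostly Tsf1, as a covariate the averaged difference was 0.08. Tsf1 itself differed by 0.34 for PDE averaged over the sexes (limma adjusted p = 0.253), so this covariate may carry part of the PDE difference. The part of fat body RNA in the difference of Obp44a was not tested. Between the sexes Obp44a differed by 0.17 averaged over the treatments (95% interval -0.26 to 0.60, limma adjusted p = 0.681), and by -0.07 without female control 1.

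Obp44a varied with the summed glial markers inside the groups. Of the 10 measured markers Gs2 (mean 457 RPKM over all libraries) and nrv2 (mean 284 RPKM) were the highest, and moody and Tret1-1 were at 0. With the sum of the 10 markers r was 0.57 and rho 0.56 (permutation, adjusted p = 0.00272 and 0.0365), and r was 0.53 without the 2 farthest libraries. The values by group were 0.87, 0.76, 0.64 and 0.66, in the order female controls, females after PDE, male controls and males after PDE. Obp44a also varied with the 9 fat body markers (r = 0.64, rho = 0.65; permutation, adjusted p = 0.0194 and 0.0201) and with 6 haemocyte markers, genes of the insect blood cells (r = 0.61, rho = 0.58; permutation, adjusted p = 0.0446 and 0.0441). By group the haemocyte relation was r = 0.95 and 0.65 in the females, and -0.19 and 0.02 in male controls and males after PDE. Of 4 tested haemocyte markers 2 were lower in males averaged over the treatments, Hml (-0.52, limma adjusted p = 0.0214) and NimC1 (-0.81, limma adjusted p = 0.0228). Over all tested genes 7.88% were lower in males in this comparison. Not called were eater (-0.54, limma adjusted p = 0.0512) and Pxn (0.11, limma adjusted p = 0.132). Pxn, with the highest mean of the list (6.98 RPKM), thus went the other way. Female control 1 had the lowest sum of glial (867 RPKM), fat body (271 RPKM) and haemocyte markers (6.79 RPKM) of all libraries, beside its 62.6 RPKM of Obp44a. The genes most like Obp44a were CG10660 (r = 0.89) and GstE6, a glutathione S-transferase gene (r = 0.88). Of the 8 tested glial markers 0 were called in any comparison, with a median PDE minus control difference of 0.17 averaged over the sexes against 0.01 over all tested genes. Summed glial markers were 867 to 1110 RPKM in female controls, 924 to 1320 in females after PDE, 890 to 1250 in male controls and 1140 to 1440 in males after PDE. The part of the glial markers in the difference of Obp44a was not tested.

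**Figure D4:**
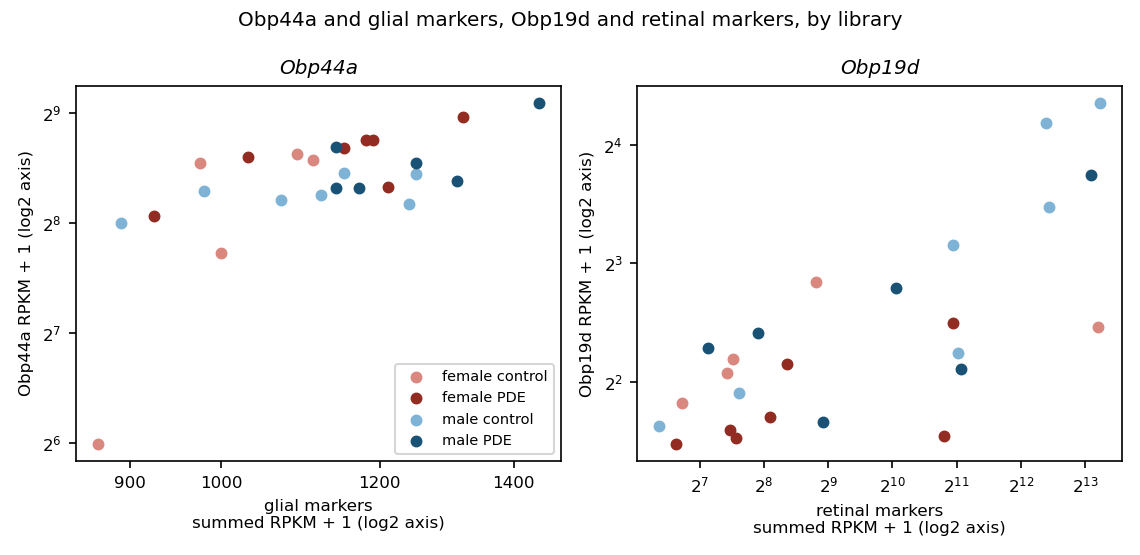
Left, Obp44a against summed glial markers; right, Obp19d against summed retinal markers (all RPKM + 1 on log2 axes), 1 point per library, coloured by group. Female control 1 sits alone at the lower left for Obp44a (62.6 RPKM), and the highest Obp19d values, up to 19.4 RPKM, lie among libraries with high retinal markers.

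Of the antennal class, Obp19d and Obp56d passed the minimum for testing. Obp19d (FBgn0011280, dm6 X:20419613-20420979, plus strand), also known as a pheromone-binding protein related gene, measured 2.54, 3.59, 3.21, 4.52 and 6.19 RPKM in the 5 female controls. Lowest, median and highest values were 1.79, 2.02 and 4.64 RPKM in females after PDE, 2.09, 7.92 and 19.4 in male controls and 2.17, 4.1 and 12.4 in males after PDE. The groups overlapped throughout. Means were 4.01 ± 1.41 RPKM (SD, n = 5), 2.57 ± 1.08 (SD, n = 7), 9.03 ± 6.99 (SD, n = 7) and 5.34 ± 3.67 (SD, n = 6) in the same order. The male minus female difference averaged over the treatments was 0.71 on the log2(RPKM + 1) scale (SE 0.278, 95% interval 0.14 to 1.29), which did not pass (limma adjusted p = 0.103). Leaving out male control 3 raised it past the threshold, at 0.83 (limma adjusted p = 0.0401). Averaged over the sexes PDE minus control was -0.49 (SE 0.278, limma adjusted p = 0.878), and -0.01 without the retina-rich libraries (limma adjusted p = 0.999).

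Obp19d varied with the summed retinal markers. The highest of these was ninaE, with a mean of 1230 RPKM over all libraries against 275 for Arr1, the next highest. The libraries with the highest Obp19d were male controls 4, 6 and 5 and male after PDE 3, at 19.4, 17.2, 10.1 and 12.4 RPKM, and their retinal marker sums were 9620, 5380, 5530 and 8760 RPKM. Female control 4 was an exception, with a retinal sum of 9390 RPKM and 4.52 RPKM of Obp19d. Over 25 centred libraries r was 0.71 and rho 0.66 (permutation, adjusted p = 0.00272 and 0.0118), and r was 0.74 without the 2 farthest libraries. The values by group were 0.53, 0.56, 0.90 and 0.66. In the 15 libraries that were not rich in retinal markers, the averaged male minus female difference was 0.06 (limma adjusted p = 0.947), and with the retinal sum as a covariate it was 0.37 (limma adjusted p = 0.345). Those 15 libraries hold only 2 male controls, at 2.76 and 2.09 RPKM of Obp19d. The part of retinal RNA in the sex difference of Obp19d was not tested. The male minus female difference of the retinal sum in controls was itself wide and did not pass (1.84 on the log2 scale, exact two-sided permutation p = 0.237, adjusted p at least 0.333 over 16 such tests of marker sums). Of the 13 tested retinal markers 0 were called in any comparison. The gene Obp19c, 648 bases from Obp19d, followed it with r = 0.71. Closest to Obp19d over all tested genes were CG15211 (r = 0.83) and GstE14, a glutathione S-transferase gene (r = 0.82).

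Obp56d (FBgn0034470, chromosome arm 2R), a gene of the antenna and mouthparts, measured 0.783, 2.28, 7.26, 1.09 and 6.41 RPKM in the 5 female controls. Lowest, median and highest values were 0.514, 0.941 and 1.5 RPKM in females after PDE, 1.16, 1.34 and 3.17 in male controls and 0.428, 0.859 and 6.57 in males after PDE. All 7 females after PDE lay below the median of the female controls, and 5 of 6 males after PDE below that of the male controls, with overlap in both sexes. PDE minus control was -0.94 on the log2(RPKM + 1) scale in females (SE 0.365, 95% interval -1.69 to -0.19) and -0.22 in males (SE 0.347, -0.94 to 0.50). Neither passed, with limma adjusted p = 0.893 (unadjusted p = 0.0168) in females and 1 in males. Averaged over the sexes it was -0.58 (SE 0.252, unadjusted p = 0.0305, limma adjusted p = 0.661). The difference of the male and female changes was 0.72 (95% interval -0.32 to 1.76, limma adjusted p = 0.999). Between the sexes Obp56d differed by -0.17 averaged over the treatments (limma adjusted p = 0.739). Obp56d passed in none of its relations to the marker sums. The genes most like it were the antisense RNA gene asRNA:CR44165 (r = 0.77) and CG31522 (r = 0.74). Both overlap other annotated genes, as CG10660 and CG15211 do.

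The other 4 antennal genes stayed below the minimum. For Obp83a the length in use is 3.13 times its exon length, which lowers its deposited RPKM, while Obp83b, Obp28a and lush rest on few reads. Obp83a (FBgn0011281, dm6 3R:5972155-5975245), one of a pair of neighbouring antennal genes, ran from 0.196 to 0.719 RPKM, on 14 to 96 reads a library. Its means were 0.517 ± 0.136 RPKM (SD, n = 5) in female controls, 0.451 ± 0.0721 (SD, n = 7) in females after PDE, 0.489 ± 0.071 (SD, n = 7) in male controls and 0.45 ± 0.139 (SD, n = 6) in males after PDE, which differ by less than the spread in each group. Its partner Obp83b (FBgn0010403, dm6 3R:5976177-5976817) lies 931 bases away and ran from 0.0549 to 0.656 RPKM, on 1 to 13 reads. Across the 25 centred libraries the pair had r = -0.10, at read numbers where counting error is large.

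Obp28a (FBgn0011283, dm6 2L:7496791-7497365), an abundant gene of antennal sensilla, held 1 to 9 reads a library and 0.0458 to 0.777 RPKM. Its means were 0.207 ± 0.117 RPKM (SD, n = 5) and 0.372 ± 0.16 (SD, n = 7) in female controls and females after PDE, and 0.203 ± 0.152 (SD, n = 7) and 0.443 ± 0.185 (SD, n = 6) in male controls and males after PDE. In the fit with no minimum the averaged PDE difference of Obp28a was 0.22 on the log2(RPKM + 1) scale (unadjusted p = 0.00243, limma adjusted p = 0.359). The gene lush (FBgn0020277, dm6 3L:19604398-19606090) encodes the binding protein through which the male pheromone cis-vaccenyl acetate is sensed. It ran from 0 to 0.233 RPKM, on 0 to 15 reads, and was listed at 0 in 4 libraries. A count of 0 is compatible with up to 3 reads, so absence cannot be shown at this depth.

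The antennal class was set beside 16 olfactory receptor genes and their partners, of which 2 were tested and 0 called in any comparison. Their summed level was 2.82 to 5.53 RPKM over all libraries, and Orco, the co-receptor of most olfactory neurons, was 0.606 to 1.72 RPKM. The 6 tested members passed in 0 relations to this sum, with r from -0.31 to -0.04. A list of 8 antennal enzymes and secreted proteins summed to 37.5 to 82.5 RPKM over all libraries. Its highest means were those of Cyp6w1 (24.4 RPKM), Rh50 (17.2 RPKM) and Est-6 (15.9 RPKM). Relations to this second sum were not run. Of the 8 genes 5 were tested, and 1 was called: the cytochrome P450 gene Cyp6w1 was higher in males by 0.30 averaged over the treatments (limma adjusted p = 0.0411). Over all tested genes 4.26% were higher in males in this comparison. Cyp6w1 was not called in controls alone or after PDE alone (limma adjusted p = 0.299 and 0.234).

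Over the 6 tested members, PDE gave 0 calls in females, 0 in males and 0 when both sexes were averaged. The change also differed between the sexes for 0 members. Unadjusted limma p was under 0.05 for 2 members in females and 2 in the average, and for 0 in males and in the difference of the changes. The share of all tested genes called was 0.0751% for females, 0.175% for males and 0.413% in the average, and 0 of 7985 genes were called for the difference of the changes, where 177 had an unadjusted p under 0.05. Control and PDE libraries overlapped for all 6 members in both sexes, while they did not for 0.313% of tested genes in females and 0.363% in males. The median averaged PDE difference of the members was -0.26 on the log2(RPKM + 1) scale, against 0.01 over all tested genes. Comparisons within females and within males do not share libraries, whereas the sex and PDE comparisons share their controls.

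Among the 38 other Obp genes, 7 were tested, 26 were above 0 but below the minimum, and 5 were listed at 0 in every library. Obp18a stood between Obp44a and Obp99c in level, at a mean of 83.1 RPKM over exons. In deposited RPKM it averaged 72.0 ± 21.1 (SD, n = 5) in female controls, 122 ± 33.2 (SD, n = 7) in females after PDE, 51.1 ± 15.3 (SD, n = 7) in male controls and 59.9 ± 21.6 (SD, n = 6) in males after PDE. It was lower in males after PDE, with a difference of -1.05 on the log2(RPKM + 1) scale (SE 0.233, limma adjusted p = 0.0065). In controls the difference was -0.48 (limma adjusted p = 0.343). Its averaged difference was -0.77 (SE 0.169, limma adjusted p = 0.00306). Obp56h, which is known from work on male mating behaviour, was also lower in males, with an averaged difference of -0.42 (SE 0.0972, limma adjusted p = 0.00446), a call lost without the retina-rich libraries (-0.32, limma adjusted p = 0.333). In controls alone it differed by -0.54 (limma adjusted p = 0.0249), a call lost in 10 of the alternatives run. Obp49a, Obp8a, Obp56a, Obp19c and Obp83ef were not called in any comparison.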

How the data were processed

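The members, gene lists and comparisons were chosen with earlier results of these data known. Extraction used the Maxwell RSC simplyRNA chemistry and library preparation Takara's SMART-Seq mRNA LP kit, per the labels' protocols. The submitters' processing notes name STAR and dm6. The sources used here do not give the read counter, its strand setting or its annotation. The authors deposited RPKM values per gene, and the treated samples, titled PDT, were read as PDE. The length behind the deposited RPKM equalled the genomic span, introns included, for 11894 of the 13577 genes whose whole reads were recovered from the steps of the values (within 0.001 reads), which made up 99.82 to 99.93% of library totals. Reads are used for depth, for levels over exons and in 1 alternative. A minimum RPKM removes genes with long introns more readily.

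Symbols and exon lengths came from Ensembl BDGP6.54 (release 115), which names 15997 identifiers. Of 16060 genes, 13581 were above 0 in at least 1 library. Genes that reached 1 RPKM in 5 or more libraries were tested as log2(RPKM + 1) with limma 3.58.1 in R 4.3.3: 1 coefficient per group, all 25 libraries, moderated errors with a trend, Benjamini-Hochberg adjustment over all tested genes of a comparison, and calls at an adjusted p under 0.05. Ranges, SDs and 95% intervals are over libraries or from limma. Relations used values centred on group means and 100000 permutations within groups, adjusted over 51 relations. Where the 2 farthest libraries were left out of a relation, the group means of all 25 libraries were kept. Each member is named, with the 2 tested genes most correlated with each tested member, every other tested Obp gene and the called members of each list. The script was tested on simulated data. Alternatives were pseudocounts of 0.1 and 5, other minimums and scalings, array weights, voom on recovered reads, a replicate block, marker covariates, and leaving out libraries. Other steps ran in Python 3.11.15 with scipy 1.17.1, pandas 2.3.3, numpy 2.4.6 and matplotlib 3.10.9.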

Additional observations from a re-analysis of the deposited data

Results flagged for a closer look

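In 9 of 40 combinations of member and group, 1 library stood apart by Dixon's 95% criterion. Chance alone meets it in about 1 of 20 groups if values are normally distributed. It was applied to RPKM without a log, which is skewed upwards for several members, so these 9 cases cannot be set against that rate. Several of these fall in the same library. Female control 2 held 45.9 RPKM of Obp99a (next highest 13), 14.6 RPKM of Obp99c (next 4.59) and 0.202 RPKM of lush (next 0.0237, on 8 reads). Female after PDE 2 held 21.5 RPKM of Obp99a (next 8.25). Male after PDE 6 held 12.9 RPKM of Obp99c (next 6.26). For Obp56d, male control 2 held 3.17 RPKM (next 1.77) and male after PDE 1 held 6.57 RPKM (next 1.11, on 73 reads). Male after PDE 3 held 12.4 RPKM of Obp19d (next 5.94) and had the highest retinal marker sum of its group. Male control 4 held 0.233 RPKM of lush (next 0.0849, on 15 reads).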

How the results depend on the processing

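The count of members called for PDE, averaged or by sex, and for the difference of the changes was 0 under every alternative run. Between the sexes 2 members were called in each comparison. In controls the count was 1 with at least 1 RPKM required in 13 libraries, which leaves out Obp99b itself, and 1 with only the groups compared. It was 0 with voom and 0 without the retina-rich libraries. After PDE it was 1 with a pseudocount of 5, 1 with no minimum, 1 with the stricter minimum, 1 without the retina-rich libraries and 0 with voom. Averaged, it was 1 with the stricter minimum and 1 without the retina-rich libraries. Leaving out 1 library gave 1 to 2 in controls, 1 to 2 after PDE and 2 to 3 in the average. The cause of these changes was not tested, except that a removed gene cannot be called and fewer libraries were fitted.

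Signs turned for small differences. The averaged PDE difference of Obp99b (-0.03) was 0.15 with a pseudocount of 0.1, 0.01 with array weights, 0.22 with voom, 0.10 with the fat body covariate and 0.55 without the retina-rich libraries, and ran from -0.23 to 0.15 with 1 library left out. That of Obp99c (0.19) was -0.23 with the fat body covariate. The averaged sex difference of Obp99c (-0.07) was 0.04 without female controls 1 and 2, a choice made after seeing the data, and ran from -0.18 to 0.10 with 1 library left out. That of Obp44a (0.17) was -0.02 with array weights and -0.04 without female controls 1 and 2, and ran from -0.07 to 0.26.

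Nothing in the labels pairs libraries by replicate number. Correlations of same-numbered libraries between control and PDE ran from 0.03 to 0.30 in females and from -0.69 to 0.46 in males, and from -0.35 to 0.75 between the sexes. Of the shared numbers, 3 of 5 in females and 1 of 6 in males matched their own number best, as did 2 of 5 between the control groups and 0 of 6 between the PDE groups. With the number as a block, 2 members were called in each sex comparison and 0 for PDE. No library was rich in fat body markers, so leaving such libraries out was not run. Depth limits Obp83b, Obp28a and lush, with at most 15 reads a library.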
